A study of Mus musculus with 5 samples.

Results

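The Schlafen genes Slfn1, Slfn2, Slfn4, Slfn5 and Slfn8 were followed through single cells of the atherosclerotic mouse aortic arch. These members were chosen by name, 5 of the 16498 genes in the expression table. The series compared Apoe-/- mice, by the labels Oasl1+/+Apoe-/-, with Oasl1-/-Apoe-/- mice, so that both groups lacked Apoe, whose loss raises plasma cholesterol and makes mice prone to plaques. Oasl1, an interferon-induced gene of the oligoadenylate synthetase family, was in addition deleted in the second group, in all cells and not in 1 cell type. Arches were taken after 28 weeks of normal chow, sorted for live cells and profiled by droplet 3′ RNA sequencing from pooled mice, in 2 Apoe-/- libraries and 3 libraries labelled Oasl1-/-Apoe-/-, which together held 18260 cells. The libraries held between 3212 and 4338 cells and between 16959976 and 19813039 unique molecular identifiers (UMIs), counts of single captured RNA molecules. For Oasl1 itself 27 and 16 UMIs were counted in Apoe-/-, and 299, 257 and 315 in the other 3 libraries. The study's allele lacks the promoter region and exon 2, yet more Oasl1 UMIs were counted in the libraries labelled with it. In this method tags are read from the 3′ end of the transcript, and which transcript gave these UMIs was not tested. This gene therefore did not bear out the genotypes, and every direction below rests on the labels.

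Schlafen proteins share a conserved N-terminal core and are known mainly from immune cells, where many of them are induced by type I interferon and several restrain growth. In the mouse they fall into short forms (Slfn1 and Slfn2), an intermediate form (Slfn4, with Slfn3) and long forms with a helicase-like C-terminal part (Slfn5 and Slfn8, with Slfn9). Slfn1 was the founding member, described as a brake on thymocyte growth. Slfn2 keeps resting T cells quiescent and is needed for the survival of T cells and monocytes, Slfn4 is a myeloid gene regulated during macrophage activation, and Slfn5 is a nuclear protein that can repress interferon-induced transcription.

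All 5 genes lay in a single gene cluster of 335.4 kb on chromosome 11 (GRCm38, GENCODE mouse release 21), between positions 82951349 and 83286726, with 9 annotated Slfn genes. Slfn5 opened the cluster (82951349 to 82964840, plus strand, 8 exon blocks), followed by Slfn8 (83002158 to 83020810, minus strand, 6 exon blocks), Slfn2 (83065112 to 83070678, plus strand, 2 exon blocks), Slfn1 (83116849 to 83122670, plus strand, 2 exon blocks) and Slfn4 (83175186 to 83190216, plus strand, 8 exon blocks). Near-identical stretches can divide reads among such neighbours. Of the 60-base words in the last 600 bases of Slfn8 transcripts, from which 3′ tags come, 17.5% also occurred in other genes of the cluster, mostly the pseudogene Slfn10-ps, and of those of Slfn2 7.76% occurred in Slfn4. For Slfn1, Slfn4 and Slfn5 the share was 0%. Counts of Slfn8, and to a lesser degree of Slfn2, are therefore uncertain in how they were divided. The antisense gene Slfn5os overlaps 9333 bases of Slfn5, and whether the counting used strand was not given in the sources used here.

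The promoters are shown because several members rose in the same cell types as interferon response genes, described further below. They run from 250 bases before to 50 bases after the start site given by RefSeq (GRCm38.p6), 5′ to 3′ on the strand of the gene. All 5 genes had an entry, and Slfn8 had 2, of which 1 is printed. Capitals mark matches, on either strand, to GAAANNGAA, the core of the element bound by interferon regulatory factors.
Slfn1, chr11:83116570-83116869, plus strand: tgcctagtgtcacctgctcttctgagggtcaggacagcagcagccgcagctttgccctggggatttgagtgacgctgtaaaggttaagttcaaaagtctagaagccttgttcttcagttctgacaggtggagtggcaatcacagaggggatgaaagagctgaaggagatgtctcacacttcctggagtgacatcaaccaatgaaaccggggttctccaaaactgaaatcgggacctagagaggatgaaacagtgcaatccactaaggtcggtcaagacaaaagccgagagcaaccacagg
Slfn2, chr11:83064862-83065161, plus strand: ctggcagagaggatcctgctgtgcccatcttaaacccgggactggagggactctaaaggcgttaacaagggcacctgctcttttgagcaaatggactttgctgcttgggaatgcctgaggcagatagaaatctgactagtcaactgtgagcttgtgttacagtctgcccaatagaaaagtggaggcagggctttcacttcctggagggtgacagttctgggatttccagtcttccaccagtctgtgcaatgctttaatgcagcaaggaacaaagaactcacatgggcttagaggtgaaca
Slfn4, chr11:83174936-83175235, plus strand: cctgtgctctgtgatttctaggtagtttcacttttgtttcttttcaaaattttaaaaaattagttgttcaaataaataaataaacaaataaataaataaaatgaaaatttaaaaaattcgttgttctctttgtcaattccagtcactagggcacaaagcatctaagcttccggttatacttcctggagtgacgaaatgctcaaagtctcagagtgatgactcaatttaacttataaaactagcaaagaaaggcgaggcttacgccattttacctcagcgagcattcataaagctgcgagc
Slfn5, chr11:82951852-82952151, plus strand: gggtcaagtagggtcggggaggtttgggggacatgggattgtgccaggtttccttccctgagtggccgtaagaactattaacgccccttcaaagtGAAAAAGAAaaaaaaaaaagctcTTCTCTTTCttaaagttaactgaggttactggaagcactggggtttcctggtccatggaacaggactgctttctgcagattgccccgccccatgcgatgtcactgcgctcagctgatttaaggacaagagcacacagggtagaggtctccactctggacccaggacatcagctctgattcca
Slfn8, chr11:83020761-83021060, minus strand: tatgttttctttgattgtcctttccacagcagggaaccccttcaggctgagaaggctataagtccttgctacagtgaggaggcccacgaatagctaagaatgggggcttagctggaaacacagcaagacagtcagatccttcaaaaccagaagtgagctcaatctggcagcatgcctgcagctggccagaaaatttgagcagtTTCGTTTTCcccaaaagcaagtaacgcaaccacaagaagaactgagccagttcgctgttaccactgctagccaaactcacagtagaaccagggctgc

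Both long forms held the element. Slfn5 had 2 sites, GAAAAAGAA at -155 and TTCTCTTTC on the other strand at -132, counted to their first base from the start site, which did not overlap. Slfn8 had 1 site, TTCGTTTTC at -47. The letters did not occur in the windows of Slfn1, Slfn2 and Slfn4. Of 32851 RefSeq promoters of the same length, 8.56% held the element, as did 13 of 20 promoters found for that interferon response list. A match is a description of the letters and not a test of binding.

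To place the family in the tissue, cells were grouped into types by clustering without the Slfn genes, and each type was named from marker genes. Levels are means of UMIs per 10000 UMIs of the cell (CP10K), averaged over the cells of a library, and are compared across cell types for 1 gene at a time. The 8 macrophage markers summed to 213 and 242 CP10K in macrophages, in Apoe-/- and in the other group, and the 8 endothelial markers to 62.2 and 61.6 CP10K in endothelial cells. Macrophages numbered 594 in the Apoe-/- libraries and 1761 in the libraries labelled Oasl1-/-Apoe-/-, and the latter also held more fibroblasts (199 against 807) and natural killer and T cells (NK/T cells, 209 against 513) and fewer smooth muscle cells (5517 against 4242). Macrophages made up 7.21% and 6.92% of the cells in Apoe-/- and 17.3%, 17.3% and 19.1% in the other libraries, and smooth muscle cells 64.1% and 66.9% against 43.3%, 43.0% and 42.9%.

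UMIs of Slfn1, Slfn2 and Slfn4 came mainly from leukocytes, while those of Slfn5 also came from endothelial cells and fibroblasts and those of Slfn8 also from fibroblasts. Of the 456 Slfn1 UMIs in the libraries labelled Oasl1-/-Apoe-/-, 42.3% came from macrophages, 17.1% from monocytes, 13.2% from NK/T cells and 11.6% from neutrophils, which were only 72 cells. Macrophages held 49.3% and monocytes 34.2% of the 1801 Slfn2 UMIs in Apoe-/-, and 55.0% and 19.5% of the 4652 in the other group. Slfn4 was the most myeloid member, with 68 of 177 UMIs in monocytes, 60 in macrophages and 27 in neutrophils of the libraries labelled Oasl1-/-Apoe-/- and none in NK/T cells, B cells or fibroblasts of either group. Slfn5 had 50.3% of its 292 UMIs in endothelial cells in Apoe-/-, whereas in the other group endothelial cells held 20.8% and macrophages 46.2% of 1126. Slfn8 had 46.8% of 370 UMIs in macrophages and 16.5% in fibroblasts in the libraries labelled Oasl1-/-Apoe-/-. Endothelial cells held 8 of 54 Slfn8 UMIs in Apoe-/- and 11 of 370 in the other group.

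**Figure D1:**
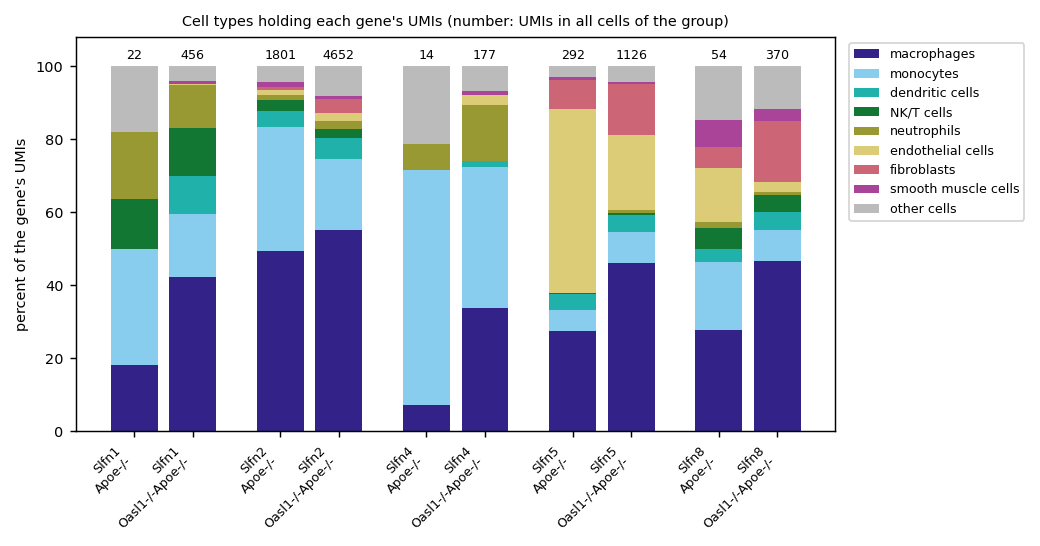
Percent of the UMIs of each Slfn gene that came from each cell type, for Apoe-/- libraries (left bar of each pair) and libraries labelled Oasl1-/-Apoe-/- (right bar), with the number of UMIs over the bar. Slfn1, Slfn2 and Slfn4 UMIs came mainly from leukocytes, and the endothelial share of Slfn5 was 50.3% against 20.8%.

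The order of the cell types differed by gene. Slfn1 was highest in neutrophils in the libraries labelled Oasl1-/-Apoe-/- (mean 6.08 CP10K), followed by monocytes (0.672) and NK/T cells (0.664), whose libraries overlapped, then dendritic cells (0.333) and macrophages (0.183), which stood apart from each other. Slfn2 was highest in neutrophils (7.14 CP10K in Apoe-/- and 7.97 in the other group) and monocytes (6.86 and 6.01), which overlapped in both groups, followed by macrophages (2.48 and 2.53). In Apoe-/- NK/T cells (1.43) and dendritic cells (1.09) came next and overlapped, while in the other group dendritic cells (2.19) overlapped macrophages and NK/T cells (1.28) stood apart below. Slfn4 was highest in neutrophils (0.258 and 2.52 CP10K) and monocytes (0.178 and 0.571), which overlapped only in Apoe-/-. Slfn5 was led by endothelial cells in Apoe-/- (0.570 CP10K), with each neighbour in the order overlapping the next from there through fibroblasts, macrophages, dendritic cells and monocytes, and NK/T cells far below (0.0157 and 0.0671). Slfn8 in the libraries labelled Oasl1-/-Apoe-/- lay between 0.255 CP10K in monocytes and 0.121 in fibroblasts, with overlap between all neighbours in that range.

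**Figure D2:**
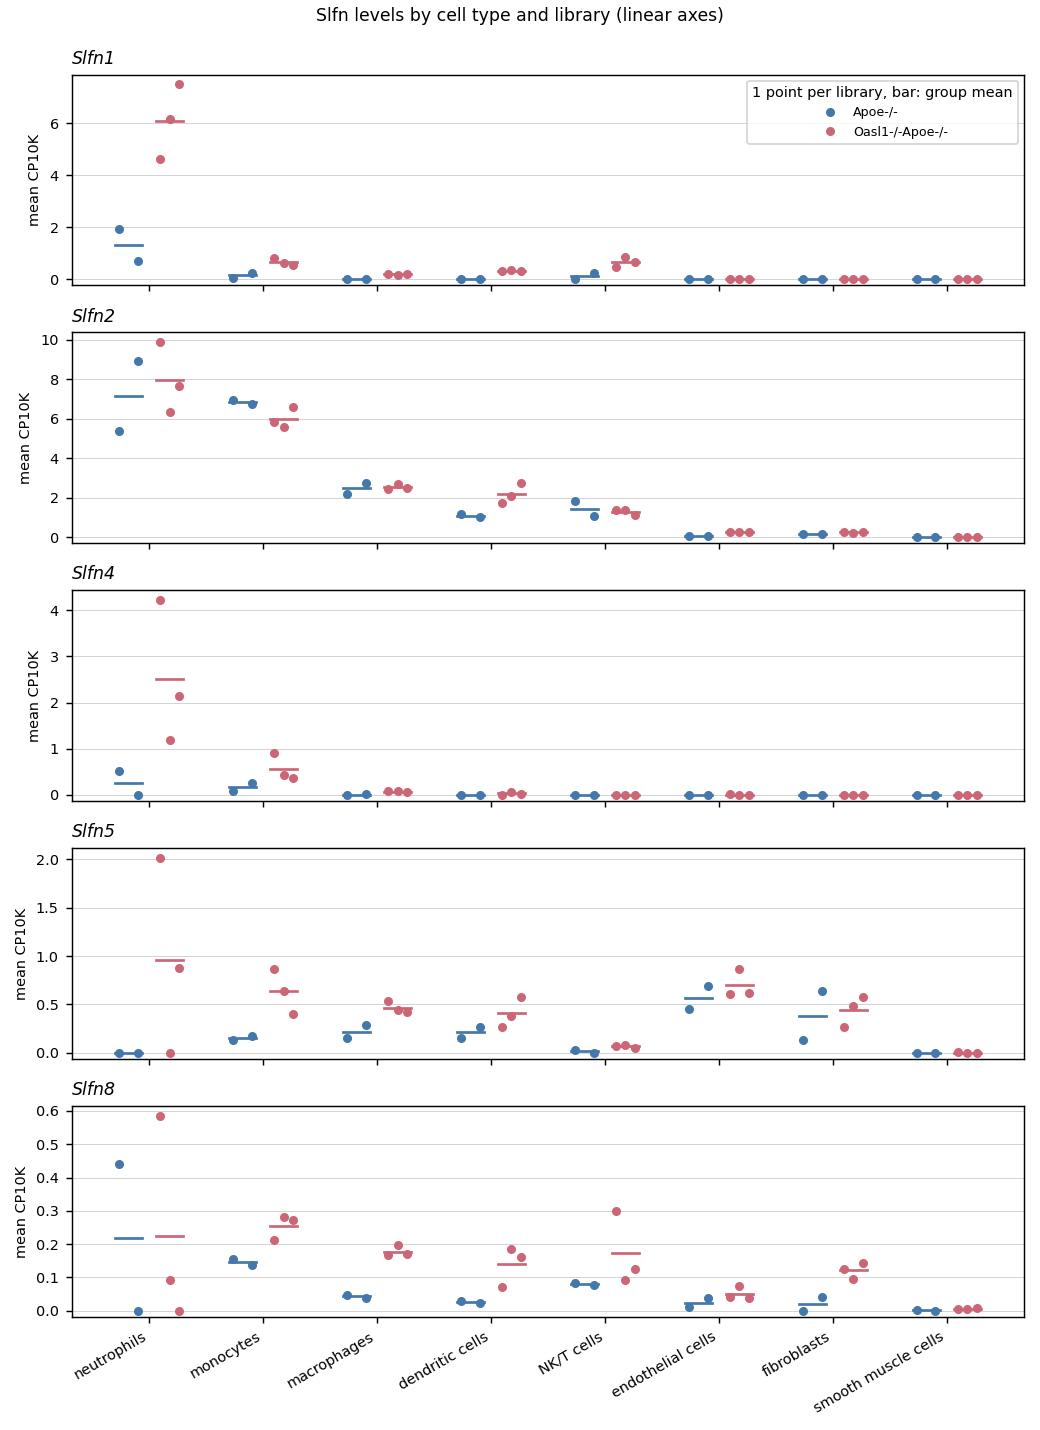
Mean CP10K of each Slfn gene per library (points) by cell type, with 1 panel for each gene, linear axes and a bar at the group mean. Slfn1 and Slfn4 were highest in neutrophils and monocytes, Slfn2 in neutrophils and monocytes at 6.01 CP10K or more in both groups, and the Slfn5 level in endothelial cells was 0.570 CP10K in Apoe-/- and 0.696 CP10K in the other group.

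Over all cells of a library each member was higher in every library labelled Oasl1-/-Apoe-/- than in either Apoe-/- library. So were 28.4% of all genes tested over all cells. Slfn1 stood at 0.0145 and 0.0150 CP10K in Apoe-/- and at 0.130, 0.161 and 0.150 CP10K in the other libraries, a difference of 1.60 (SE 0.0847) on the log2(CP10K + 0.05) scale, which understates the change of low genes (limma with Benjamini-Hochberg adjustment over all genes, adjusted p = 2.9e-07). Slfn2 stood at 0.489 and 0.481 against 0.938, 0.940 and 0.996 CP10K (log2 difference 0.91, SE 0.0535, adjusted p = 5.8e-07). Slfn5 stood at 0.0700 and 0.113 against 0.225, 0.241 and 0.216 CP10K (0.99, SE 0.114, adjusted p = 7.0e-05). For Slfn8 the values were 0.0173 and 0.0153 against 0.0840, 0.0740 and 0.0795 CP10K (0.96, SE 0.0771, adjusted p = 5.2e-06). Slfn4, at 0.00615 and 0.00967 against 0.0998, 0.0397 and 0.0391 CP10K, was below the minimum mean of 0.05 CP10K and was not tested. All 4 tested members rose, where 20.5% of the 9836 genes tested over all cells rose. Slfn1 and Slfn8 reached the minimum mean only through the libraries in which they were high, so this count supports nothing by itself. A mean over all cells cannot tell more cells of a type from more RNA per cell, and with 2 and 3 libraries the p-values measure only the spread between these libraries.

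When each cell type was given the same weight in every library, the members parted. Slfn1 still rose (log2 difference 1.33, adjusted p = 4.7e-06) and so did Slfn5, at 0.0837 and 0.159 against 0.208, 0.213 and 0.193 CP10K (0.61, adjusted p = 0.0265), among 6.1% of all genes. Slfn2 stood at 0.720 and 0.797 against 0.788, 0.804 and 0.817 CP10K and overlapped between the groups (0.08, 95% interval -0.05 to 0.21, adjusted p = 0.461). Slfn1, at 0.0184 and 0.0245 against 0.116, 0.135 and 0.139 CP10K, passed the minimum mean only through its high group, and Slfn4 and Slfn8 were below it. The call of Slfn5 was lost without any single library labelled Oasl1-/-Apoe-/- (0.59 to 0.64, adjusted p 0.0578 to 0.106), and its difference was 0.29 without Apoe-/- replicate 1 and 0.93 without Apoe-/- replicate 2.

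To determine which members differed within macrophages, the phagocytes that take up lipid in plaques, each library's macrophages were compared. Slfn1, Slfn5 and Slfn8 rose and Slfn2, the member with most macrophage UMIs, differed by less than the spread between libraries. Slfn1 stood at 0.0130 and 0.00706 CP10K in Apoe-/- and at 0.188, 0.171 and 0.190 CP10K in the libraries labelled Oasl1-/-Apoe-/-, resting on 4 and 193 UMIs (log2 difference 1.96, SE 0.163, adjusted p = 1.6e-06). Slfn1 was thus near 0 in both Apoe-/- libraries and at a like level in the other 3. Slfn2 stood at 2.20 and 2.77 against 2.44, 2.67 and 2.50 CP10K, with full overlap (0.04, 95% interval -0.16 to 0.24, adjusted p = 0.841). Slfn4 had 1 UMI in the Apoe-/- macrophages and 60 in the others, at 0 and 0.0111 against 0.0918, 0.0773 and 0.0560 CP10K, and was below the minimum mean. The ratio of its pooled CP10K was 21.6, with an exact 95% counting interval of 3.72 to 865. The libraries of Slfn1 and of Slfn4 did not overlap between the groups. Of all genes tested in macrophages, 20.5% were higher without overlap.

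Among the long forms, Slfn5 stood at 0.151 and 0.286 CP10K in Apoe-/- macrophages and at 0.531, 0.447 and 0.425 CP10K in the other libraries (log2 difference 0.99, SE 0.185, adjusted p = 0.0021). Slfn8 stood at 0.0473 and 0.0385 against 0.167, 0.196 and 0.170 CP10K (1.29, SE 0.161, adjusted p = 7.5e-05). Both genes were lower in each Apoe-/- library than in any of the other 3. With these, 3 of the 4 tested members rose, beside 8.38% of 7903 genes tested in macrophages. Slfn1 and Slfn8 again passed the minimum mean only through their high group. The calls of Slfn1 and Slfn8 held under each of the 18 alternatives run for them, while that of Slfn5 was lost with cells thinned to 1000 UMIs (0.88, adjusted p = 0.112) and with the macrophage clusters at equal weights (0.67, adjusted p = 0.150), and its difference was 0.62 without Apoe-/- replicate 1.

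**Figure D3:**
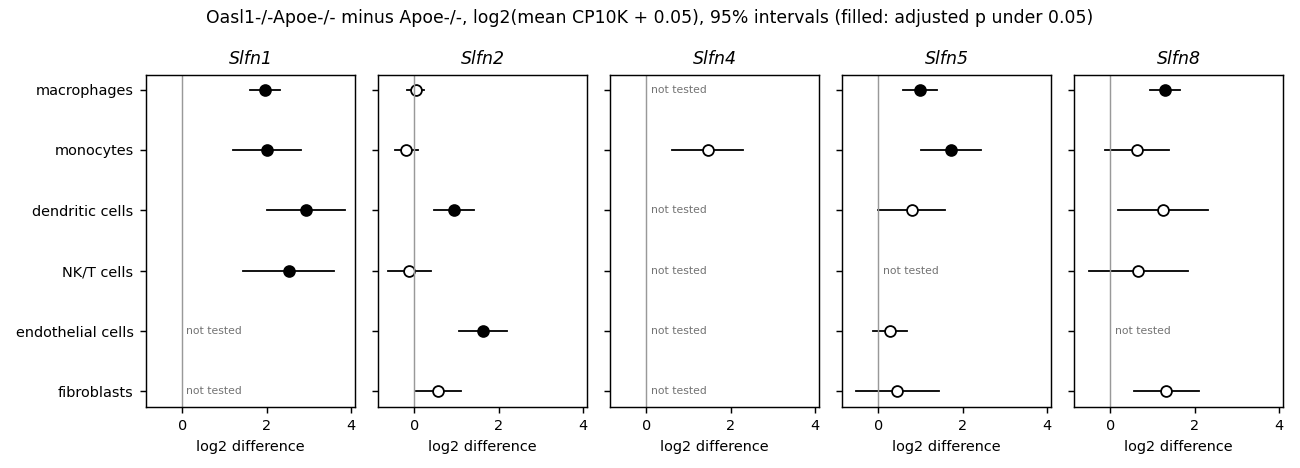
Log2 difference (libraries labelled Oasl1-/-Apoe-/- minus Apoe-/- libraries, log2(CP10K + 0.05) scale) of each Slfn gene in 6 cell types, with 95% intervals from limma and filled points for an adjusted p under 0.05. In macrophages Slfn1 (1.96), Slfn5 (0.99) and Slfn8 (1.29) were past the threshold and Slfn2 (0.04) lay at 0, while in endothelial cells Slfn2 (1.63) was past it.

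Macrophages with a UMI followed the same pattern. In Apoe-/- 0.673% of macrophages had a Slfn1 UMI (Wilson 95% interval 0.262% to 1.72%), against 8.92% (7.67% to 10.3%) in the other group, at median depths of 6446.5 and 5780 UMIs. The intervals cover counting error only. With cells thinned to 1000 UMIs the shares were 0% and 1.88%. A Slfn2 UMI was present in 62.1% and 66.0% of macrophages (20.2% and 21.8% after thinning), a Slfn5 UMI in 10.8% and 21.2% (2.36% and 4.56%) and a Slfn8 UMI in 2.53% and 9.09% (0.168% and 1.65%). In smooth muscle cells Slfn2 was present in 0.399% and 0.802% of cells and Slfn5 in 0.0363% and 0.141%, at median depths of 4771 and 5023.5 UMIs. Whether these UMIs were stray RNA was not tested.

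The makeup of the macrophages moved with the genotype. A cluster led by Gpnmb and Trem2, genes of lipid-laden macrophages, held 79.3% and 79.0% of the macrophages in Apoe-/- and 43.0%, 44.0% and 42.1% in the libraries labelled Oasl1-/-Apoe-/-, and the rest lay in a cluster led by the chemokine genes Ccl12 and Ccl8. The summed level of 7 monocyte markers in macrophages, none of them at 0, was 0.554 CP10K (0.456 to 0.652) in Apoe-/- and 2.25 CP10K (2.05 to 2.44) in the other group, and that of 6 neutrophil markers was 0.339 (0.330 to 0.348) and 0.315 CP10K (0.279 to 0.347), with 2 of them at 0. Their part in the macrophage differences was not tested.

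Within the cluster led by Gpnmb and Trem2 (470 and 757 cells) none of the 3 tested members passed the threshold (2 at an unadjusted p under 0.05 and 0 by limma-voom), beside 3.21% of 7827 genes. Slfn5 stood at 0.148 and 0.187 against 0.381, 0.204 and 0.337 CP10K (log2 difference 0.69, adjusted p = 0.052), with no overlap. Slfn2 stood at 1.66 and 2.43 against 1.66, 1.77 and 1.64 CP10K (-0.24, adjusted p = 0.302). Slfn1, at 0.00270 and 0.00894 against 0.0653, 0.0420 and 0.0811 CP10K, was below the minimum mean although its groups did not overlap. In this cluster the lowest library labelled Oasl1-/-Apoe-/- had more Slfn1 than the highest Apoe-/- library, as it did in all macrophages. Of all genes tested in the cluster, 16.4% were higher without overlap.

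In the cluster led by Ccl12 and Ccl8 (124 and 1004 cells) Slfn1 stood at 0.0523 and 0 against 0.280, 0.271 and 0.270 CP10K (log2 difference 2.18, adjusted p = 0.0146) and rose. Slfn8 stood at 0.0261 and 0.0531 against 0.230, 0.269 and 0.240 CP10K (1.74, adjusted p = 0.0138) and rose. Both passed the minimum mean through the high group, and 2 of 5 tested members rose beside 3.25% of 7868 genes. Slfn2 ran the other way, at 4.23 and 4.05 against 3.03, 3.37 and 3.12 CP10K with no overlap (-0.38, adjusted p = 0.0644). Of all genes tested in this cluster, 20.8% were lower without overlap. Slfn5 stood at 0.164 and 0.660 against 0.644, 0.638 and 0.489 CP10K (0.70, adjusted p = 0.394), so that its Apoe-/- libraries spanned the values of the others. The calls of Slfn1 and Slfn8 were lost without any single library labelled Oasl1-/-Apoe-/-, and without Apoe-/- replicate 2 all 5 members passed. With both clusters at the same weights in every library, Slfn2 in macrophages was lower in the libraries labelled Oasl1-/-Apoe-/- (-0.33, adjusted p = 0.0320), unlike the near 0 difference over all macrophages.

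**Figure D4:**
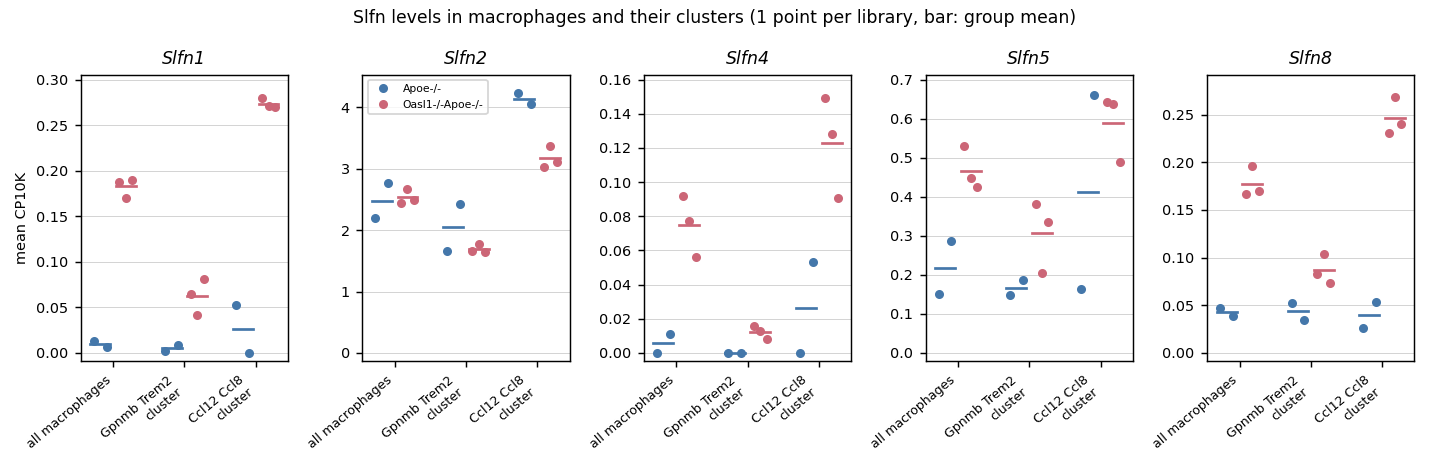
Mean CP10K of each Slfn gene per library (points, bar at the group mean) in all macrophages, in the cluster led by Gpnmb and Trem2 and in the cluster led by Ccl12 and Ccl8. Slfn2 had a mean of 2.04 and 1.69 CP10K in the first cluster and of 4.14 and 3.17 CP10K in the second, for Apoe-/- and for the libraries labelled Oasl1-/-Apoe-/-.

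In monocytes, the blood-derived precursors of plaque macrophages (223 and 306 cells), Slfn1 and Slfn5 rose, 2 of the 5 tested members, beside 1.83% of 7653 genes. Slfn1 stood at 0.0549 and 0.251 CP10K in Apoe-/- and at 0.828, 0.628 and 0.560 CP10K in the other libraries (log2 difference 2.0, SE 0.385, adjusted p = 0.0043). Slfn5 stood at 0.130 and 0.170 against 0.863, 0.642 and 0.397 CP10K (1.72, SE 0.340, adjusted p = 0.0052). In both genes the groups did not overlap, but the 2 Apoe-/- libraries of Slfn1 lay far apart. Of all genes tested in monocytes, 14.2% were higher without overlap and 15.9% lower. Slfn4 stood at 0.0921 and 0.264 against 0.915, 0.425 and 0.373 CP10K, again with no overlap (1.46, adjusted p = 0.0525). Slfn8 stood at 0.154 and 0.138 against 0.213, 0.280 and 0.272 CP10K (0.63, adjusted p = 0.510). Slfn2, the member with most monocyte UMIs, stood at 6.97 and 6.74 against 5.86, 5.56 and 6.60 CP10K (-0.19, adjusted p = 0.591). Its Apoe-/- libraries were the higher ones, by less than the fit could separate.

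The call of Slfn1 was lost without Apoe-/- replicate 1 (1.24, adjusted p = 0.0840), and that of Slfn5 without either Apoe-/- replicate (1.58 and 1.86, adjusted p 0.0551 and 0.0574) or without replicate 1 labelled Oasl1-/-Apoe-/- (1.48, adjusted p = 0.0565). The summed neutrophil markers in monocytes were 4.89 CP10K (1.13 to 8.64) in Apoe-/- and 1.24 CP10K (0.315 to 2.98) in the other group, with 1 of 6 at 0, the summed smooth muscle markers were 23.2 CP10K (20.5 to 25.9) and 6.33 CP10K (3.24 to 9.82), and the 5 erythroid markers 65.8 CP10K (35.6 to 95.9) and 5.49 CP10K (0.529 to 15.3). The monocytes' own 7 markers summed to 36.2 CP10K (34.0 to 38.3) and 65.0 CP10K (60.9 to 69.0). Own markers were thus lower, and smooth muscle and erythroid markers higher, in Apoe-/- without overlap, while neutrophil markers overlapped. The 8 endothelial markers (0.155 and 0.315 CP10K), the 10 NK/T markers (0.0978 and 0.225 CP10K) and the 9 dendritic markers (1.09 and 1.21 CP10K) were low in both groups. Their part in the Slfn1 and Slfn5 differences was not tested. Of monocytes, 2.24% and 18.6% had a Slfn1 UMI, 2.24% and 12.7% a Slfn4 UMI, 6.73% and 21.9% a Slfn5 UMI and 77.1% and 79.4% a Slfn2 UMI.

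Dendritic cells, which present antigen to T cells, numbered 147 and 253. Slfn1 had 0 UMIs in both Apoe-/- libraries, which allows up to 2.04% of these cells with a UMI, against 48 UMIs, or 0.310, 0.356 and 0.331 CP10K, in the other libraries. With UMIs pooled over libraries, the level in those labelled Oasl1-/-Apoe-/- was 7.79-fold that of a floor of 3 counts over the Apoe-/- group. The floor allows for the counting error of the 0 UMIs only. The counting error of the 48 UMIs, which lay in 26 cells, and the spread between libraries are not covered. Between libraries the log2 difference of Slfn1 was 2.93 (limma, adjusted p = 7.8e-04), a call lost in 3 of 16 alternatives. Slfn2 stood at 1.17 and 1.02 against 1.73, 2.09 and 2.76 CP10K (log2 difference 0.95, adjusted p = 0.0364). Both genes rose, beside 1.12% of 7592 genes, but Slfn1 passed the minimum mean only through its high group. Neither gene overlapped between the groups, and 16.5% of all genes tested here were likewise higher without overlap. Slfn5 (0.79, adjusted p = 0.441) and Slfn8 (1.24, adjusted p = 0.325) did not pass, and Slfn4 had 0 and 3 UMIs. The call of Slfn2 was lost without any 1 of 4 libraries (adjusted p 0.0793 without Apoe-/- replicate 1, 0.203 without Apoe-/- replicate 2, and 0.162 and 0.226 without replicates 2 and 3 labelled Oasl1-/-Apoe-/-). The summed monocyte markers in dendritic cells were 11.3 CP10K (10.6 to 12.1) in Apoe-/- and 30.6 CP10K (28.9 to 34.0) in the other group, with 2 and 1 of 7 at 0, while the 9 dendritic markers summed to 33.8 and 26.7 CP10K. Monocytes had higher Slfn2 than dendritic cells in both groups, and the part of these markers in the rise of Slfn2 and of Slfn1 was not tested.

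T cells are the cells in which Slfn1 and Slfn2 are best known. In NK/T cells (209 and 513) Slfn1 stood at 0 and 0.241 CP10K in Apoe-/- and at 0.451, 0.863 and 0.678 CP10K in the other libraries (log2 difference 2.52, adjusted p = 0.0051). These values rest on 3 and 60 UMIs, a ratio of pooled CP10K of 7.98 (exact 95% interval 2.60 to 39.8, counting error only). Slfn1 was the 1 of 3 tested members that rose, beside 1.17% of 8257 genes. The difference was 3.79 without Apoe-/- replicate 2. The call was lost without Apoe-/- replicate 1 (1.25, adjusted p = 0.118) or without replicate 2 or 3 labelled Oasl1-/-Apoe-/- (2.32 and 2.49, adjusted p = 0.111 and 0.0938). Slfn2 stood at 1.81 and 1.06 against 1.35, 1.37 and 1.11 CP10K, so that the Apoe-/- libraries enclosed the others (-0.12, 95% interval -0.63 to 0.39, adjusted p = 0.904). Slfn8 stood at 0.0823 and 0.0779 against 0.301, 0.0929 and 0.125 CP10K (0.67, adjusted p = 0.732). Slfn5 had 1 and 7 UMIs in NK/T cells, and Slfn4 had none in either group. The summed monocyte markers in NK/T cells were 6.39 CP10K (6.24 to 6.54) and 7.52 CP10K (5.77 to 9.49), with overlap. Without overlap, the 5 erythroid markers were 68.7 CP10K (64.6 to 72.8) in Apoe-/- and 17.8 CP10K (0.985 to 28.9) in the other group, the 7 smooth muscle markers 20.4 (15.7 to 25.2) and 12.3 CP10K (9.01 to 14.2), and the 7 fibroblast markers 0.197 (0.170 to 0.224) and 1.75 CP10K (1.17 to 2.14). Their part in the Slfn1 difference was not tested.

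Neutrophils, short-lived granulocytes, were too few to test, with 18 cells in Apoe-/- replicate 2 and 41 and 72 in all, at median depths of 776 and 1254.5 UMIs per cell. Slfn1 stood at 1.92 and 0.683 CP10K (4 UMIs) against 4.61, 6.14 and 7.50 CP10K (53 UMIs). Slfn4 stood at 0.515 and 0 CP10K (1 UMI) against 4.22, 1.19 and 2.14 CP10K (27 UMIs). Neither gene overlapped between the groups, but the share of all genes without overlap was not computed in neutrophils. The lack of overlap therefore supports nothing by itself. Slfn2 stood at 5.37 and 8.91 against 9.89, 6.35 and 7.68 CP10K, with overlap. Slfn5 had 0 and 8 UMIs and Slfn8 1 and 3.

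In endothelial cells, which line the vessel (830 and 761 cells), Slfn2 was the member that rose. It stood at 0.0381 and 0.0698 CP10K in Apoe-/- and at 0.267, 0.273 and 0.261 CP10K in the other libraries (log2 difference 1.63, SE 0.274, adjusted p = 2.1e-04), beside 2.59% of 9553 genes. Slfn5, which had the most endothelial UMIs of the family, stood at 0.449 and 0.691 against 0.604, 0.868 and 0.617 CP10K, with overlap (0.28, 95% interval -0.13 to 0.68, adjusted p = 0.629). Slfn1, Slfn4 and Slfn8 were below the minimum mean. A Slfn2 UMI was present in 2.53% and 10.6% of endothelial cells, at median depths of 2893.5 and 3495 UMIs, above the 0.399% and 0.802% of smooth muscle cells. With cells thinned to 1000 UMIs the difference was 1.52 (adjusted p = 0.130), the 1 of 18 alternatives in which the call was lost.

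Leukocyte RNA in endothelial cells moved with this result. The summed level of 8 leukocyte markers was 3.56 CP10K (2.97 to 4.15) in Apoe-/- and 14.3 CP10K (12.4 to 15.5) in the other group, with none of them at 0. Every endothelial cell with a UMI of Ptprc, Tyrobp, Fcer1g, Laptm5, Coro1a or Cd52 was then left out, 55 cells (6.63%) and 146 cells (19.2%). This left Slfn2 at 0.0399 and 0.263 CP10K, and the difference at 1.80 (adjusted p = 6.1e-05). Cells with only Cd74 or Lyz2, the other markers of that sum, stayed in. Lymphatic endothelial markers also differed, at 0.217 CP10K (0.170 to 0.265, 4 of 6 at 0) and 9.59 CP10K (5.12 to 13.5), and their part was not tested. By endothelial cluster, Slfn2 had means of 0.0423 and 0.191 CP10K in the larger cluster, led by Ptprb and Gkn3 (729 and 564 cells), and of 0.135 and 0.50 CP10K in the cluster led by Nts and Gpihbp1 (101 and 197 cells), which are described without a test. Slfn5 stood at 0.628 and 0.677 CP10K in the first of these clusters. In the second it stood at 0.154 and 0.163 CP10K in Apoe-/- and at 0.744, 0.949 and 0.562 CP10K in the other libraries, with no overlap. Of all genes tested in endothelial cells as a whole, 14.9% were higher without overlap, and no such share was computed for this cluster.

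Smooth muscle cells, the contractile cells of the wall, held almost none of the family. Slfn2 had 22 and 34 UMIs in 5517 and 4242 cells, Slfn8 4 and 13, Slfn5 2 and 6, Slfn1 0 and 3 and Slfn4 0 and 2, no library exceeded 0.0295 CP10K for any member, and none could be tested (4.17% of 8994 genes rose). In fibroblasts, which make matrix (199 and 807 cells), 0 of the 3 tested members passed the threshold in limma (2 at an unadjusted p under 0.05 and 0 by limma-voom), beside 2.25% of 9484 genes. Slfn8 stood at 0 and 0.0423 against 0.124, 0.0966 and 0.143 CP10K, without overlap (log2 difference 1.32, adjusted p = 0.0621). Of all genes tested in fibroblasts, 18.8% were higher without overlap. Slfn2 stood at 0.174 and 0.136 against 0.275, 0.226 and 0.259 CP10K, without overlap (0.57, adjusted p = 0.253), while the summed leukocyte markers were 1.15 and 4.45 CP10K, whose part was not tested. Slfn5 stood at 0.128 and 0.634 against 0.269, 0.489 and 0.580 CP10K (0.45, adjusted p = 0.653), with the Apoe-/- libraries enclosing the others. Without Apoe-/- replicate 2 the difference was 1.42 for Slfn5 and 1.77 for Slfn8, which stood at 0 in the Apoe-/- library left. Slfn8 had passed the minimum mean only through its high group. Slfn1 and Slfn4 had 0 UMIs in fibroblasts of both groups. The makeup of the fibroblasts also moved, with 98 of the 199 cells in Apoe-/- and 528 of the 807 in the other group in a cluster led by Prg4 and Timp1, where Slfn5 was lower (0 and 0.0700 CP10K) than in the cluster led by Clec3b and Gpx3 (0.774 and 1.15 CP10K), and its part was not tested.

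Whether a member differed more in 1 cell type than in another was tested on the difference within each library, since all types came from the same 5 libraries. Against endothelial cells, the rise of Slfn1 was larger in macrophages by 1.82 (SE 0.182, adjusted p = 0.0108) but Slfn1 had 0 and 2 UMIs in endothelial cells and passed the minimum mean only through macrophages, so its difference could not be large there. For Slfn2 the difference of differences was -1.59 (SE 0.208, adjusted p = 0.0276), lost without any single library (adjusted p 0.0869 to 0.232). These were 2 of the 4 tested members, beside 0.438% of 10273 genes, a count that supports nothing by itself. Slfn5 (0.71, adjusted p = 0.291) and Slfn8 (0.82, adjusted p = 0.241) were not past the threshold. It stayed past the threshold for Slfn2 in 4 of 17 alternatives and for Slfn1 in 8 of 16. Against smooth muscle cells, Slfn1 (1.91, SE 0.112, adjusted p = 2.7e-04) and Slfn8 (1.17, SE 0.116, adjusted p = 0.0021) differed, each in 15 of 16 alternatives, beside 4.83% of 10060 genes, while Slfn5 (0.90, adjusted p = 0.0566) and Slfn2 (-0.20, adjusted p = 0.440) did not pass. On the log2(CP10K + 0.05) scale a gene near 0 in a type, as Slfn1 and Slfn8 were in smooth muscle cells, cannot show a large difference there. Between macrophages and monocytes 0 of 5 members passed in limma (1 at an unadjusted p under 0.05, Slfn8, and 0% of 8385 genes), and between macrophages and NK/T cells 0 of 4 (0 unadjusted, and 0% of 9344 genes). The limma-voom fit was not run for these comparisons.

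Several members were also found in the same cell. At least 2 of the 5 genes had a UMI in 9.93% and 25.0% of macrophages, in 11.2% and 35.9% of monocytes, in 4.08% and 17.0% of dendritic cells and in 0.957% and 4.09% of NK/T cells. All 5 genes together were found in 1 macrophage and 3 monocytes, each from a library labelled Oasl1-/-Apoe-/-. These shares follow the depth of the cells and the level of each gene, and are given with no test.

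The family was set beside lists of genes of the interferon pathway and of growth control. An interferon response list of 26 genes, 25 of them in the table, holds effectors such as Ifit3, which binds viral RNA with its partners, and Usp18, a brake on the receptor. In macrophages 25 of 25 tested genes rose (median log2 difference 1.91, Ifit3 2.78 and Ifi44 2.60), as they did for 23 of 23 over all cells (1.76) and at equal weights of the types. In monocytes 17 of 25 rose (1.55, Ifit3 3.99 and Rtp4 2.72), in dendritic cells 13 of 25 (Usp18 2.96 and Oas1a 2.93), in NK/T cells 10 of 21 (Usp18 3.69 and Ifit1 3.24), in endothelial cells 14 of 22 (1.19, Usp18 2.43 and Zbp1 1.97), in smooth muscle cells 6 of 8 (Ifit1 1.89 and Usp18 1.64) and in fibroblasts 15 of 23 (Ifi44 2.53 and Zbp1 2.06). The median of all genes tested lay within 0.061 of 0 in every comparison. Of all genes, 20.5% rose over all cells, 6.1% at equal weights and 8.38% in macrophages. In monocytes 1.83% rose, in dendritic cells 1.12% and in NK/T cells 1.17%. In endothelial cells 2.59% rose, in smooth muscle cells 4.17% and in fibroblasts 2.25%. Genes low in Apoe-/- could pass the minimum mean only through their high group, so the counts support nothing by themselves. In smooth muscle cells genes of this list rose while no Slfn gene reached the minimum mean.

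Regulators of interferon genes, 18 of them from receptors through kinases to transcription factors, rose in part, beside the shares of all genes given above. In macrophages 8 of 18 rose (among them Stat2, 1.47), in monocytes 2 of 18 (among them Irf7, 0.81), in dendritic cells 2 of 18 (among them Irf7, 1.82), in NK/T cells 2 of 18 (among them Irf9, 2.02) and in endothelial cells 2 of 17 (among them Irf8, 1.68). In smooth muscle cells 3 of 14 regulators rose, and in fibroblasts 2 of 17 rose and 1 fell. Irf7 and Irf9 are transcription factors that drive interferon response genes, Irf9 as a partner of Stat2, and Irf8 is known from myeloid development. A list of 12 genes tied to T cell quiescence, the state that Slfn2 is known to guard, showed 0 higher and 1 lower of 12 in NK/T cells, where Tcf7, a factor of naive T cells, fell by 1.02 on the log2 scale. In macrophages 3 of 9 rose (Btg2 0.64, Klf2 0.47 and Tsc22d3 0.47) and Il7r fell by 0.47. In monocytes 1 of 9 and in endothelial cells 1 of 8 rose with 0 lower, and in dendritic cells 0 of 10 passed. In smooth muscle cells 3 of 7 and in fibroblasts 2 of 7 fell with 0 higher, beside 2.21% and 1.8% of all genes lower. Of 12 cell cycle genes, 8 of 8 tested rose over all cells (median 0.79) and 0 of 7 at equal weights of the types, and within cell types 0 of 3 passed in macrophages, 0 of 2 in monocytes, 0 of 4 in dendritic cells, 0 of 5 in NK/T cells and 0 of 4 in endothelial cells. The clustering had set dividing cells apart from these types, among them 24 and 134 cycling macrophages and 6 and 15 cycling NK/T cells, so these counts do not show how many cells divided.

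Each gene's nearest patterns were sought over 35 points, the means of 7 cell types in 5 libraries, among 11945 genes, by Pearson's r of log2(CP10K + 0.05). Slfn1 was most like the interferon-inducible Ifi200 family genes Ifi213 (r = 0.944), Ifi206 (0.922) and Ifi209 (0.906). Slfn2 was most like Ptpn1 (0.978), a tyrosine phosphatase, Rap1b (0.972), a small GTPase, and Tgif1 (0.967), a homeobox repressor. Slfn4 was most like Trem1 (0.906), a receptor of neutrophils and monocytes, Adgre4 (0.905) and Fpr2 (0.900), a formyl peptide receptor. Slfn5 was most like Pnp (0.925), an enzyme of purine breakdown, St3gal1 (0.881) and Bst2 (0.877), an interferon-induced tether of virus particles. Slfn8 was most like Zbp1 (0.905), a sensor of Z-form nucleic acids, Irf7 (0.861) and Glrx (0.842). Among the members, Slfn2 and Slfn8 were the most alike (0.782), followed by Slfn1 and Slfn8 (0.746) and Slfn1 and Slfn2 (0.692), while Slfn5 was least like Slfn1 (0.122). The points share libraries and cell types, so these values are descriptions with no test.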

How the data were processed

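Reads had been aligned to mm10 by the authors with Cell Ranger 3.1.0, and cells filtered on gene number and mitochondrial share with Seurat 4.0.3 and cleared of doublets with DoubletFinder, so doublets were not called again. Each deposited value is a natural log, ln(1 + UMIs per 10000 UMIs of the cell), without scaling or batch correction by the authors. Undoing the log gave sums of 10000 per cell within 0.00344, and 100% of the values were whole UMIs within a tolerance of 0.01. In each library 5 to 14 genes had a UMI in exactly 1 cell, 107 to 126 in exactly 2 and 409 to 486 in exactly 3, so most genes in under 3 cells were taken to have been set to 0 there before deposit. The fewest genes in a cell were 201, the largest mitochondrial share was 9.99%, and 165 of 18094 barcodes occurred in more than 1 library.

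The study's annotation was not used here. Clusters came from 2000 variable genes without Slfn genes, 12 principal components, 20 neighbours and the Leiden algorithm at resolution 1 (leidenalg 0.10.2), and 20 of 22 clusters were named from at least 3 markers that were 2-fold above the other clusters and present in 10% of cells. Marker gates of at least 2 markers gave the name of the cluster for 86.0% of the 17905 cells they assigned, and 355 cells were not gated. Rebuilt names can make results differ from those of the study.

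The library was the replicate. The log2(mean CP10K + 0.05) per library of genes with a mean of at least 0.05 CP10K was tested with limma 3.58.1 (lmFit, eBayes with trend), Benjamini-Hochberg adjusted over all genes tested, with an adjusted p under 0.05 as the threshold, in cell types with at least 20 cells in every library. An exact permutation test over the 5 libraries could not go below p = 0.1. Differences are libraries labelled Oasl1-/-Apoe-/- minus Apoe-/- libraries. Named genes were the 5 members, other Slfn genes, the 3 genes most like each member, and the 2 largest changes of each list past the threshold, of which 1 gene is not reported here. The members, lists and tests were chosen with earlier results of these data known. Alternatives covered the pseudocount, the filter, limma-voom on summed UMIs, means of the natural logs, thinning to 1000 UMIs, other clusterings, marker gates, a replicate block and leaving out each library. Gene positions came from GENCODE mouse release 21 (16324 symbols, 98.9%, matched).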

Additional observations from a re-analysis of the deposited data

Results flagged for a closer look

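In 2 members the difference between the groups was larger or smaller in macrophages than in endothelial cells by the test of the difference of differences, with limits for both. For Slfn1 the value was 1.82 on the log2 scale, but with 0 and 2 UMIs in endothelial cells (at most 0.0098 CP10K) its difference there could not be large. For Slfn2 it was -1.59, with levels in macrophages that overlapped between the groups and levels in endothelial cells that did not, and the call was lost without any single library (adjusted p 0.0869 to 0.232, limma).

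The same test gave 1.91 for Slfn1 and 1.17 for Slfn8 between macrophages and smooth muscle cells. Both genes had at most 13 UMIs in the smooth muscle cells of either group, so that the difference there could not be large on this scale either.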

How the results depend on the processing

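Over 20 alternatives, 574 of 677 recomputed differences of single members kept their direction and side of the threshold, 63 lost the call, 26 gained it and 14 changed sign. All 63 losses fell among the 311 values of the 21 differences past the threshold, since only these could lose a call. Of these 311 values 0 changed sign. Of 244 recomputed counts of members past the threshold, 184 stayed within 1.5 times.

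With a pseudocount of 0.01 CP10K the count was 0 in NK/T cells (1 as reported) and 0 for macrophages against endothelial cells (2 as reported). Without a filter it was 1 in the Gpnmb and Trem2 cluster (0) and 1 for macrophages against endothelial cells. A filter at 0.2 CP10K, which leaves fewer members to test, gave 1 over all cells, 1 in macrophages, 1 in dendritic cells, 0 in endothelial cells, 1 in the Ccl12 and Ccl8 cluster, 0 at equal weights of the types, and 1 each for macrophages against endothelial and against smooth muscle cells. With limma-voom the count was 0 in dendritic cells, 0 in NK/T cells and 1 in the Ccl12 and Ccl8 cluster. Means of the natural logs gave 1 in fibroblasts, 1 in the Gpnmb and Trem2 cluster and 1 for macrophages against endothelial cells. With cells thinned to 1000 UMIs the count was 0 in monocytes, dendritic cells, NK/T cells, endothelial cells and the Ccl12 and Ccl8 cluster, and 0 for macrophages against endothelial and against smooth muscle cells. Centring by library gave 0 and 4 for these last comparisons, clusters without interferon response genes gave 1 in fibroblasts, resolution 2 gave 0 for macrophages against endothelial cells, and marker gates gave 0 in dendritic cells, 1 in smooth muscle cells and 1 for macrophages against endothelial cells. At resolution 0.6 monocytes and neutrophils had no cluster of their own and gave no value. Beyond the filter, the cause of these changes was not tested.

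Apart from leaving out a library, 8 differences changed sign. For Slfn2 in macrophages the difference was -0.0019 with thinned cells, -0.015 with marker gates and -0.33 with the macrophage clusters at the same weights. For Slfn2 in macrophages against smooth muscle cells it was 0.00014 with a pseudocount of 0.5 CP10K and 0.042 with natural logs. Thinned cells gave -0.10 for Slfn8 and 0.040 for Slfn2 in NK/T cells and -0.037 for Slfn5 in the Gpnmb and Trem2 cluster.

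Leaving out 1 library at a time moved the counts between 0 and 3 in monocytes, 1 and 2 in dendritic cells, 0 and 1 in NK/T cells, 0 and 2 in fibroblasts, 0 and 1 in the Gpnmb and Trem2 cluster, 0 and 5 in the Ccl12 and Ccl8 cluster, 1 and 3 at equal weights, 0 and 1 for macrophages against endothelial cells and 2 and 4 against smooth muscle cells. Differences of Slfn5 ranged from 0.62 to 1.36 in macrophages and from 0.29 to 0.93 at equal weights. Where the sign changed, single differences ranged from -0.13 to 0.20 for Slfn2 in macrophages, -0.49 to 0.26 for Slfn2 in NK/T cells, -0.51 to 0.023 for Slfn2 in the Gpnmb and Trem2 cluster, -0.0090 to 0.56 for Slfn5 in endothelial cells, -0.52 to 1.42 for Slfn5 in fibroblasts and -0.16 to 1.57 for Slfn5 in the Ccl12 and Ccl8 cluster. Without an Apoe-/- library, the lone one left is assumed to vary like the others.

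Same-numbered libraries deviated together with correlations of -0.0554 to 0.0429, so they share only a number. With a replicate block the count was 1 in dendritic cells and 0 for macrophages against endothelial cells, and the other counts stayed within 1.5 times. Slfn1, Slfn4 and Slfn8 rest on 1 to 15 UMIs in Apoe-/- macrophages, which limits the precision of their ratios.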

Other observations

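Other Slfn genes of the table, outside the 5 members, were sparse. Slfn9, a long form beside Slfn8, was counted 5 and 7 times in Apoe-/- and 36, 36 and 47 times in the libraries labelled Oasl1-/-Apoe-/-. Of its 119 UMIs in the latter, 31 (26.1%) came from fibroblasts and 21 (17.6%) from cycling macrophages, a cluster of 134 cells that made up 1.36% of those libraries. Its level in cycling macrophages was 0.272, 0.155 and 0.126 CP10K in these libraries, and it had 0 UMIs in the 24 cycling macrophages of Apoe-/-, which allows a share of up to 12.5% of them. In the other macrophages of the libraries labelled Oasl1-/-Apoe-/- Slfn9 had a mean of 0.0225 CP10K (0.0187 to 0.0246). Of its 60-base words at the transcript end, 15.1% occur in other genes of the cluster. Slfn3, an intermediate form beside Slfn4, was listed at 0 in both Apoe-/- libraries and had 6, 11 and 4 UMIs in the others.

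Fibroblasts held Slfn5 unevenly. In the cluster led by Clec3b and Gpx3 its mean was 0.774 CP10K (0.241 to 1.31) in Apoe-/- and 1.15 CP10K (0.801 to 1.44) in the other group, whereas in the cluster led by Prg4 and Timp1 it was 0 and 0.0700 CP10K (0.0207 to 0.141). Slfn2 was lower in the first cluster in the libraries labelled Oasl1-/-Apoe-/-, at 0.190 CP10K against 0.290 CP10K in the second.

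An unnamed cluster led by Cd5l and Atp6v0d2 (290 and 417 cells, median depths of 1178.5 and 1395 UMIs) had Slfn2 at 0.478 CP10K (0.439 to 0.518) in Apoe-/- and at 1.28 CP10K (1.08 to 1.52) in the other group. In cycling macrophages Slfn1 had means of 0.0744 and 0.0759 CP10K and Slfn2 of 1.34 and 1.77 CP10K.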
